A study of Mus musculus with 5 samples.

Results

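RYBP-bound H2AK119ub peaks of wild-type mouse embryonic stem cells that had no counterpart in DDX5 knockout cells are described here. They are the wild-type H2AK119ub peaks narrower than 5000 bp, on autosomes other than 6 and 8, that shared at least 1 bp with a wild-type RYBP peak and no base with a knockout H2AK119ub peak. There were 1113 such peaks among the 24235 H2AK119ub peaks of the wild-type library. The peaks were chosen by their presence in wild-type H2AK119ub, their overlap with RYBP and their absence from knockout H2AK119ub, so these properties are given as descriptions.

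The groups were H2AK119ub in DDX5 knockout cells, H2AK119ub in wild-type cells and RYBP in wild-type cells, all measured by chromatin immunoprecipitation and sequencing (ChIP-seq) with 1 library each. All cells were of the embryonic stem cell line MPI-II, grown on feeder cells in serum with LIF, the MEK inhibitor PD0325901 and the GSK3 inhibitor CH99021. To obtain the knockout, exon 2 of Ddx5 was cut with SpCas9-nickase and a guide pair and a single clone was expanded, so a difference between genotypes is also a difference between 1 clone and its parental line. RYBP was precipitated with an antibody against DEDAF, another name of the protein. RYBP was profiled in wild-type cells and its knockout binding is not analysed here. The knockout H2AK119ub list held 20994 peaks over 30.6 Mb and the wild-type list 24235 peaks over 45.9 Mb. Read depth and enrichment of the libraries are unknown, and a shallower library gives fewer and narrower peaks. With 1 library a group, a lower yield of the knockout library and a loss of the mark in these cells cannot be told apart. No difference between genotypes has a replicate check, no p-value is given, and the 95% intervals cover counting error only.

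H2AK119ub is the single ubiquitin that Polycomb repressive complex 1 (PRC1) attaches to histone H2A through its RING1 and RNF2 ligases. RYBP and its paralog YAF2 are subunits of the variant forms of PRC1, which carry no CBX subunit, and RYBP also binds H2AK119ub. Variant complexes reach CpG-rich promoters through KDM2B in one form and through MGA, MAX, E2F6 and L3MBTL2 in another, and the MGA form represses germline genes in embryonic stem cells. DDX5 is a DEAD-box RNA helicase with roles in transcription, splicing and microRNA processing.

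Promoter windows of 6 genes next to such peaks are shown first, because the peaks gathered at CpG-rich gene starts and included a group of germline promoters. RYBP-bound peaks kept in the knockout were similar in their share at gene starts and in CpG content, as given below. Each window is RefSeq sequence of GRCm38.p6, the build also called mm10, from 250 bases before to 50 bases after a gene start, read 5′ to 3′ on the gene's strand. In the first 3 windows capitals mark CpG dinucleotides. Trim62 (chr4:128883794-128884093, plus strand) held 29 CpG, Gpr6 (chr10:41072241-41072540, minus strand) held 13, and Apoa5 (chr9:46268383-46268682, plus strand) held 4.
Trim62: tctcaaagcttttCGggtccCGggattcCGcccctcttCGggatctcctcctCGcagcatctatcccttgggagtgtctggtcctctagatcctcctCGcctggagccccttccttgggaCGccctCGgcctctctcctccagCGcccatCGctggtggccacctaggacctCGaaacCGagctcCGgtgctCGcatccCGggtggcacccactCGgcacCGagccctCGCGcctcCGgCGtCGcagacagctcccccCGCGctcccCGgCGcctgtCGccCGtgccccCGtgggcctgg
Gpr6: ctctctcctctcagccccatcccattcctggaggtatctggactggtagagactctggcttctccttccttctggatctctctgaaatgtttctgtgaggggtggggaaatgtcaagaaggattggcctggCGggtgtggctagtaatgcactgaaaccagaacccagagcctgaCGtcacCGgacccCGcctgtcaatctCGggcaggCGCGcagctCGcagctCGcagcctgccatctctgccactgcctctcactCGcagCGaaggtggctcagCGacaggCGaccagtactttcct
Apoa5: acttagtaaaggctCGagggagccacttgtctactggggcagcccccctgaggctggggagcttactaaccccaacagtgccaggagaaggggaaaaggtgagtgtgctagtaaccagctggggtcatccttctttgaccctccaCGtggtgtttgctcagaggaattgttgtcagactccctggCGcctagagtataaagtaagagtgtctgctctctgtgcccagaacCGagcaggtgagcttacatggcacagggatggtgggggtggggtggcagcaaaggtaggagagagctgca
The Trim62 window has the CpG density of an island, with an observed-to-expected CpG ratio of 0.847, against 0.507 for Gpr6 and 0.177 for Apoa5. All 3 genes were among the 12 with the most RYBP sequence inside such a peak, so a CpG-poor window was no bar to membership.

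The next 3 windows belong to germline genes: Mael (chr1:166238695-166238994, minus strand), a piRNA pathway gene, Tex12 (chr9:50561219-50561518, minus strand), a synaptonemal complex gene, and Slc25a31 (chr3:40708621-40708920, plus strand), which encodes the ADP/ATP carrier of spermatocytes. Here capitals mark the E-box CACGTG, which MAX heterodimers such as MGA-MAX bind, and the E2F motif GCGGGAA or its reverse complement.
Mael: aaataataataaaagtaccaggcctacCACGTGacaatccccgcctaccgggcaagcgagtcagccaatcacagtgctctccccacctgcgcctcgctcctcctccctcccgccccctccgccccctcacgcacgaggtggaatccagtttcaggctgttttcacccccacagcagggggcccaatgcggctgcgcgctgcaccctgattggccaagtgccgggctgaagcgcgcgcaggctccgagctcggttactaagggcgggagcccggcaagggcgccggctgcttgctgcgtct
Tex12: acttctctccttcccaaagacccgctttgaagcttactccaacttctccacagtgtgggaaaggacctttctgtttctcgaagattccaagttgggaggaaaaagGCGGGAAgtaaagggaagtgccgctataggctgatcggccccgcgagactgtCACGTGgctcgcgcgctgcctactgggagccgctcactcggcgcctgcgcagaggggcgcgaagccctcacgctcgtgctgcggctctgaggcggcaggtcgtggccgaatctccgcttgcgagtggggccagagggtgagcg
Slc25a31: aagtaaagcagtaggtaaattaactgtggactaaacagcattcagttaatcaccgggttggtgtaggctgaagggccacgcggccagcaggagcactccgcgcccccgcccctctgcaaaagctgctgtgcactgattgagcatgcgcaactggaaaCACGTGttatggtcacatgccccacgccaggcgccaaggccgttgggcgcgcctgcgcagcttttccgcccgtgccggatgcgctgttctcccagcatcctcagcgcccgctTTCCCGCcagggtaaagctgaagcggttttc
Each of these 3 windows held 1 E-box, and those of Tex12 and Slc25a31 also held 1 E2F motif. The Apoa5 window above also held 1 E-box, not marked there, so the E-box was not particular to the germline windows. A match of letters is a description of the window and not a measured binding site.

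The peaks without a knockout counterpart were narrow. Their median width was 1247 bp, with quartiles of 1002 and 1607 bp. It was 2064 bp, with quartiles of 1480 and 2936 bp, for the 2869 RYBP-bound peaks of the same chromosomes and width limit that were kept in the knockout. They made up 28.0% of the 3982 RYBP-bound peaks. Of all 19767 wild-type peaks under the width limit, 20.1% overlapped RYBP and 54.5% had no knockout peak. Over the 15785 without RYBP, 61.2% had none. Since absence in the knockout was part of the choice, these shares describe the rule. The share fell with width: 76 of 102 RYBP-bound peaks narrower than 800 bp were absent, 74.5% (Wilson interval 65.3% to 82.0%), against 32 of 717 from 3000 to 5000 bp, 4.46% (3.18% to 6.23%). In each of the 7 width classes the share was lower with RYBP than without it. From 1500 to 2000 bp, for example, it was 24.3% (21.5% to 27.4%) with RYBP and 50.4% (48.4% to 52.4%) without.

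**Figure D1:**
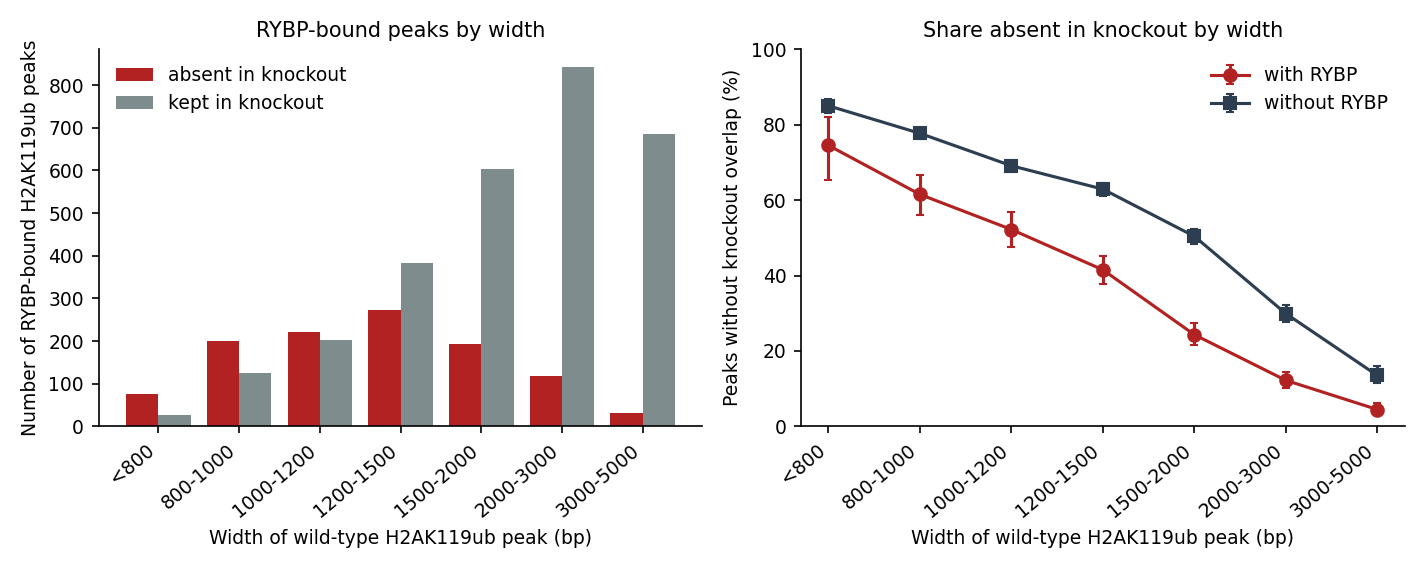
Left, the number of RYBP-bound wild-type H2AK119ub peaks absent (red) and kept (grey) in the knockout, by peak width in bp. Right, the percentage of peaks without a knockout overlap in the same width classes, with RYBP (red circles) and without RYBP (dark squares); bars are 95% Wilson intervals. The share with RYBP falls from 74.5% to 4.46% across the width classes.

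The width limit removed few peaks. Of the 507 RYBP-bound peaks of 5000 bp or more, 2 had no knockout overlap, 5247 bp on chromosome 19 and 5353 bp on chromosome 2. Just inside the limit lay peaks of 4936 bp on chromosome 4, 4696 bp at Ankrd39 on chromosome 1 and 4532 bp on chromosome 7. The knockout peaks nearest to these 3 were 11187, 1698 and 919 bp away. Wide RYBP-bound domains thus almost all shared at least 1 bp with a knockout peak. A wider peak offers more bases to share, so this does not show that whole domains were still called.

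The absent peaks ranged from neighbours of knockout H2AK119ub peaks to peaks far from any. The median distance was 6182 bp, with quartiles of 848 and 66656 bp. A knockout peak lay within 1 kb of 316 of the 1113 peaks, 28.4% (25.8% to 31.1%), so the mark was still called beside them. No knockout peak lay within 5 kb of 581, 52.2% (49.3% to 55.1%), and none within 100 kb of 228, 20.5% (18.2% to 23.0%). Peaks standing more than 5 kb from knockout signal were more often at gene starts, at 68.0% (64.0% to 71.7%), than those within 1 kb of it, at 54.0% (48.5% to 59.5%). Their RYBP peaks had a median width of 1617 bp, against 1850 bp for those within 1 kb. The set thus held both isolated promoter peaks and peaks beside sequence that the knockout list still called.

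**Figure D2:**
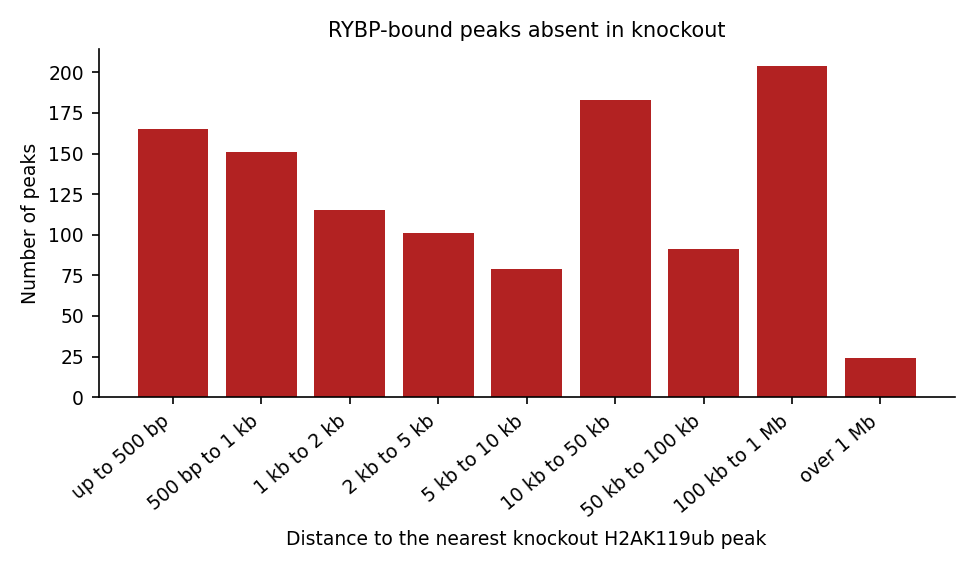
Number of RYBP-bound peaks absent in the knockout by distance to the nearest knockout H2AK119ub peak, in unequal distance classes. The first 2 classes, up to 1 kb, hold 165 and 151 peaks, and the class from 100 kb to 1 Mb holds 204.

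The 1113 peaks touched 1046 distinct RYBP peaks, counting for each the RYBP peak with the largest overlap. Of these RYBP peaks, 757, or 72.4% (69.6% to 75.0%), were overlapped by no knockout H2AK119ub peak at any base. The other 289 still carried knockout H2AK119ub on another stretch, and 246 also touched a wild-type peak that was kept. More than 1 absent peak on the same RYBP peak was less common: 67 RYBP peaks touched 2 or more absent peaks, and at 34 of these the absent peaks lay on either side of the RYBP centre. At Nktr, for example, absent peaks of 1078 and 1202 bp flanked the centre of a RYBP peak of 2941 bp (chr9:121717811-121720751). At Meis1, a homeobox cofactor gene, absent peaks of 1086 and 1158 bp flanked that of a RYBP peak of 3922 bp (chr11:19018162-19022083). These 2 genes were chosen after their values had been seen.

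RYBP peaks at absent H2AK119ub peaks were narrower than at kept ones. Their median width was 1674 bp (interval of the median 1651 to 1710 bp), against 1984 bp (1948 to 2015 bp) at kept peaks and 1634 bp over all 9564 RYBP peaks. RYBP width was not part of the rule. Because kept H2AK119ub peaks are wider, the comparison was repeated within 4 classes of H2AK119ub width, bounded at the quartiles of the absent peaks. The medians were lower at absent peaks in all 4 classes, at 1622.5 against 1727 bp in the narrowest and 1662 against 2010.5 bp in the widest, and the mean difference over the classes was -221 bp, against -310 bp without classes. The widest class ran from 1607 bp to the width limit and held 279 absent and 1974 kept peaks. Widths were thus matched only in part, and the difference can still carry H2AK119ub width. RYBP overlapped a median of 649 bp of an absent peak, or 49.9% of its width, and 933 bp of a kept peak, or 44.9%. Only 89 of the absent peaks lay wholly inside RYBP, so most of them extended beyond it.

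Absent RYBP-bound peaks stood more alone in the wild-type landscape than kept ones. The next wild-type H2AK119ub peak was a median of 1565 bp away (1297 to 2113 bp), against 586 bp (540 to 628 bp) for kept RYBP-bound peaks. Without RYBP it was 1994 bp (1894 to 2129 bp) away for absent peaks and 588 bp (551 to 621 bp) for kept ones. The shorter distance thus went with being kept, with or without RYBP. More than 10 kb separated 33.4% (30.7% to 36.2%) of absent RYBP-bound peaks from the next peak, against 18.1% (16.7% to 19.5%) of kept ones. Without RYBP the share was 21.4% (20.6% to 22.3%) of absent peaks and 7.68% (7.04% to 8.37%) of kept ones. By chromosome, the share of RYBP-bound peaks that were absent lay between 20.0% on chromosome 15 and 38.7% on chromosome 10 among the 17 chromosomes used.

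Absent and kept RYBP-bound peaks lay at gene starts in similar shares. A start in the RefSeq promoter table lay within 2 kb of 656 of the 1078 absent peaks on chromosomes other than 18, 60.9% (57.9% to 63.7%), and of 1678 of 2787 kept peaks, 60.2% (58.4% to 62.0%). The difference was 0.645 percentage points (Newcombe interval -2.81 to 4.05). Absent peaks without RYBP were at starts far less often, at 14.3% (13.6% to 15.0%), a difference of 46.5 points (43.5 to 49.5). Kept peaks without RYBP were at starts in 18.2% (17.2% to 19.2%), so in both outcomes the share was higher with RYBP. Of the nearest starts, 559 of 656 belonged to protein-coding genes, 85.2% (82.3% to 87.7%), against 86.1% (84.4% to 87.7%) at kept peaks. Away from starts, 271 of 422 absent peaks were centred inside a gene, 64.2% (59.5% to 68.6%), against 73.9% (71.2% to 76.4%) of kept peaks, so absent peaks were more often between genes.

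The peaks flanked the start and seldom covered it. The nearest start lay inside 149 of the 656 absent peaks, 22.7% (19.7% to 26.1%), while 287 lay wholly downstream of it and 220 wholly upstream. Of kept peaks, 35.8% (33.5% to 38.1%) held the start, a difference of -13.0 points (-16.9 to -9.0). Averaged over the 4 width classes the shares were closer, at 22.9% for absent and 26.3% for kept peaks. The widest class was open up to the width limit, so widths were matched only in part. RYBP sat on the start instead: its peak held the start in 563 of the 656 cases, 85.8% (82.9% to 88.3%), with a median centre 133 bp downstream. Upstream placement was more common among absent peaks, at 33.5% (30.0% to 37.2%), than among kept peaks, at 21.4% (19.5% to 23.4%). Kept peaks were wider, and this contrast was not repeated within width classes.

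**Figure D3:**
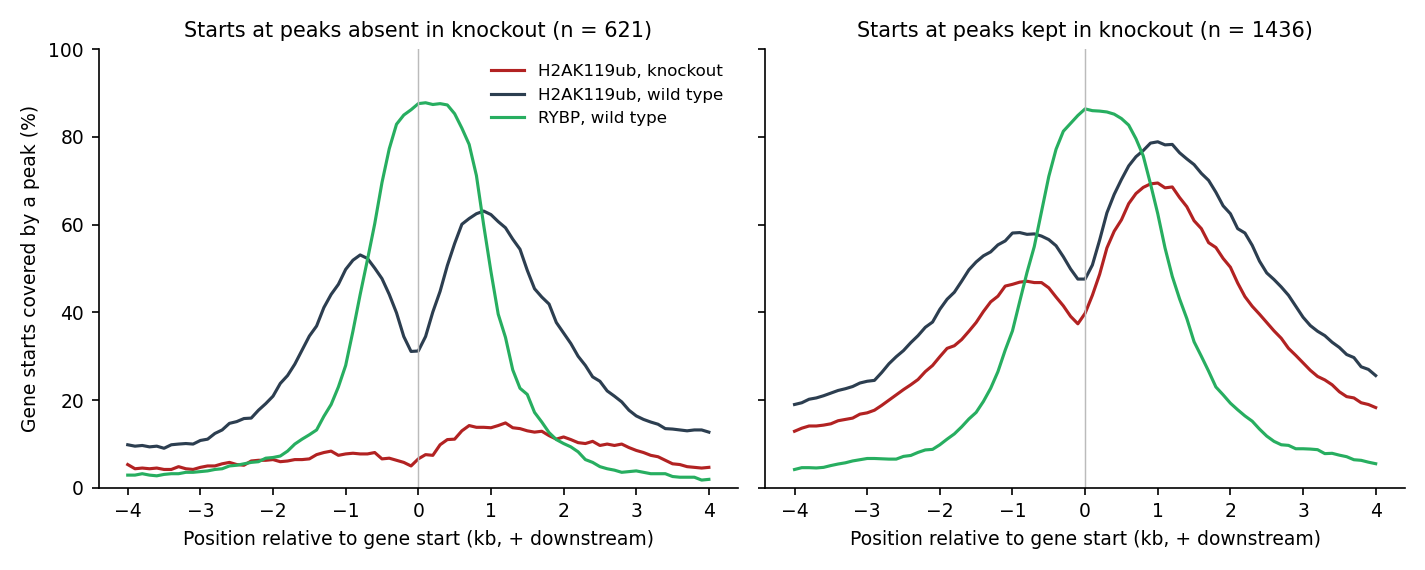
Percentage of distinct gene starts covered by a peak at each position from 4000 bp upstream to 4000 bp downstream, for starts nearest to absent peaks (left, n = 621) and to kept peaks (right, n = 1436). Lines show knockout H2AK119ub (red), wild-type H2AK119ub (dark) and wild-type RYBP (green); at absent peaks wild-type H2AK119ub dips to 31.2% at the start between flanks of 49.8% at -1000 bp and 62.3% at 1000 bp.

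Around the 621 distinct starts nearest to absent peaks, knockout H2AK119ub covered 6.6% at the start and 13.7% at 1000 bp downstream, against 31.2% and 62.3% in wild-type cells. Around the 1436 starts nearest to kept peaks, the knockout values were 39.8% and 69.5%, and the wild-type values 47.6% and 78.9%. The gap between genotypes at absent peaks follows from their choice. In both sets of starts the wild-type mark was higher at 1000 bp downstream than at 1000 bp upstream and lower at the start itself, where RYBP covered 87.6% of starts at absent peaks and 86.4% at kept peaks.

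Promoters at absent and kept peaks had close CpG contents. The observed-to-expected CpG ratio of the 300-base windows had a median of 0.719 (interval of the median 0.704 to 0.746) at absent peaks and 0.724 (0.707 to 0.743) at kept peaks. A ratio of at least 0.6, a usual bound for CpG islands, was found in 67.8% (64.0% to 71.3%) and 67.5% (65.0% to 69.9%). The median was 0.356 (0.337 to 0.376) at absent peaks without RYBP and 0.391 (0.384 to 0.398) over all 28089 windows of these chromosomes. It was 0.824 (0.816 to 0.833) at RYBP peaks that had no H2AK119ub in either genotype, so the marked RYBP promoters, absent or kept, had a lower CpG ratio than the unmarked ones.

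**Figure D4:**
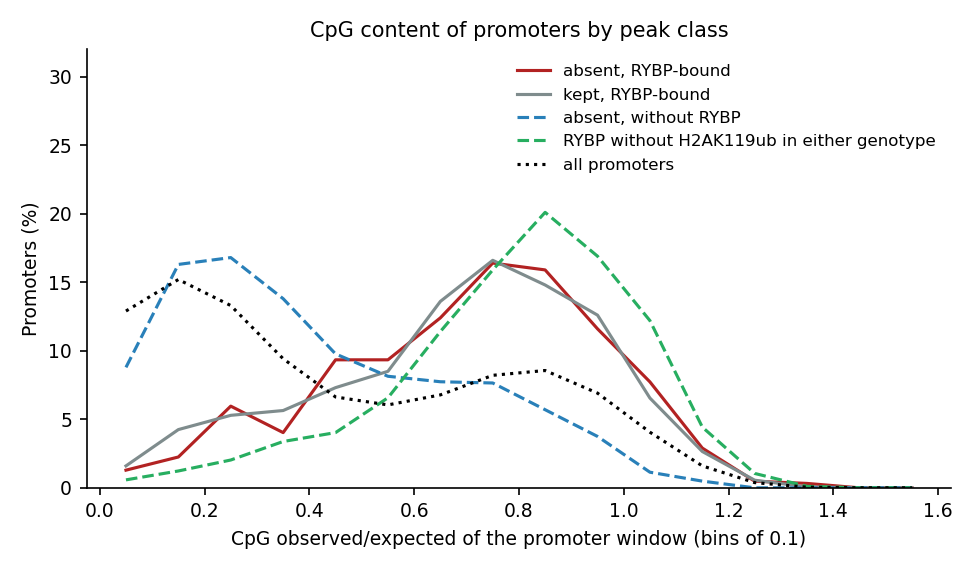
Distribution of the CpG observed-to-expected ratio of promoter windows in bins of 0.1, as a percentage of the windows of each class. The absent (red) and kept (grey) RYBP-bound classes run together, with medians of 0.719 and 0.724, while absent peaks without RYBP (blue, dashed) have a median of 0.356. RYBP peaks without H2AK119ub are in green and all promoters are dotted.

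Motifs were searched on both strands of the same windows. The E-box CACGTG was found at 64 of 621 starts nearest to absent peaks, 10.3% (8.15% to 12.9%), at 8.7% (7.35% to 10.3%) of those nearest to kept peaks and in 7.26% of all windows. The E2F motif GCGGGAA was found in 7.09% (5.32% to 9.38%) at absent peaks, 8.22% (6.91% to 9.75%) at kept peaks and 4.64% of all windows. The YY1 motif GCCATNTT was scarce, in 2.42% (1.47% to 3.95%) of windows at absent peaks and 2.58% (1.88% to 3.53%) at kept peaks, against 7.12% (6.22% to 8.14%) at RYBP peaks without H2AK119ub and 6.05% of all windows. At absent peaks without RYBP it was in 3.75% (2.82% to 4.96%), so a low share was not particular to RYBP-bound peaks. The name RYBP stands for RING1 and YY1 binding protein, and YY1 is a zinc-finger factor of many active promoters. The NRF1 motif was in 6.6% (4.9% to 8.83%) at absent peaks, 4.39% (3.44% to 5.57%) at kept peaks and 11.8% (10.6% to 13.0%) at RYBP peaks without the mark. SP/KLF boxes (GGGCGGGG) were in 37.7% (34.0% to 41.6%) at absent peaks, 34.2% (31.8% to 36.7%) at kept peaks and 37.4% (35.6% to 39.3%) at RYBP peaks without the mark, against 17.8% of all windows. The remaining motifs were the CRE (TGACGTCA), the CCAAT box and the TATA box (TATAAA), found in 1.61%, 32.7% and 6.6% of windows at absent peaks and in 1.78%, 37.2% and 13.5% of all windows. Part of the contrast with all windows went with CpG content. Among windows with a CpG ratio of at least 0.6, the E-box was in 11.4% (8.71% to 14.8%) of 421 at absent peaks and 11.5% of all 10272, and the E2F motif in 9.5% (7.06% to 12.7%) and 10.0%. In the same windows the TATA box was in 6.41% (4.44% to 9.17%) at absent peaks and 5.89% of all. Without this limit NRF1 was in 4.64% of all windows, below the interval at absent peaks. With the limit it was in 9.03% (6.65% to 12.1%) at absent peaks and 11.8% of all, a share that the interval includes. YY1 was still lower, in 2.38% (1.3% to 4.32%) at absent peaks and 8.65% of all, and SP/KLF boxes were in 46.3% (41.6% to 51.1%) and 37.9%. Over windows of any CpG ratio, the intervals at absent and kept peaks overlapped for every motif given with both, while those for YY1 and NRF1 at absent peaks lay below those at RYBP peaks without the mark. E-box, E2F, CRE, SP/KLF and NRF1 letters contain CpG dinucleotides, so their shares are not independent of CpG content.

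Counted by gene, 609 of 14780 protein-coding genes with a promoter entry had an absent RYBP-bound peak within 2 kb of a start, 4.12%. At 392 of the 609, 64.4% (60.5% to 68.1%), no knockout H2AK119ub peak lay within 2 kb of any start, and at the other 217 another knockout peak did. Over all 2941 genes with wild-type H2AK119ub at a start, 31.2% had no knockout peak there. Choice of the 609 used the knockout peaks, so the higher share follows from it.

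The genes with the most RYBP sequence inside an absent peak included regulators of growth and differentiation. Vegfa, the angiogenic growth factor, had an absent peak of 2666 bp (chr17:46029988-46032653) lying wholly inside a RYBP peak of 3162 bp and holding the start. Within 2 kb of its starts H2AK119ub covered 0 bp in the knockout and 3787 bp in the wild type, and the nearest knockout peak to the absent peak was 19875 bp away. Glis3, a zinc-finger transcription factor of pancreatic beta cells, had an absent peak of 1752 bp (chr19:28678063-28679814), wholly inside RYBP and 1459833 bp from the nearest knockout peak. Srf, the serum response factor, had a peak of 2595 bp over its start, with 1690 bp of RYBP and 0 bp of knockout H2AK119ub against 2043 bp in the wild type. Ccn1, a secreted matrix-associated protein, had a peak of 1950 bp upstream of its start, with 1729 bp of RYBP. Gpr6, an orphan receptor, had 1933 bp of RYBP in a peak of 2055 bp, and Rnf39, a RING-finger gene, 1898 bp in a peak of 2382 bp, both without knockout H2AK119ub within 2 kb of a start. At these 6 genes the knockout list held nothing near the start.

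At 3 other genes of this group the knockout list held a peak near the start. Trim62, a RING-finger ubiquitin ligase, had 191 bp within 2 kb of its start in the knockout and 2306 bp in the wild type. Those 2306 bp were the absent peak itself, so the 191 bp lay beside it. Krt8, the keratin of simple epithelia, had 1184 and 2949 bp, with a knockout peak 327 bp from the absent one. Id2, an inhibitor of basic helix-loop-helix factors, had 769 and 2688 bp. These are smaller covered lengths in the knockout and not promoters without the mark. Whether the knockout bases at Krt8 and Id2 were also marked in the wild type was not tested. A single peak of 3613 bp, with 2340 bp of RYBP, counted for both Apoa5, an apolipoprotein gene whose start it held, and Zpr1, a zinc-finger gene whose start was 1868 bp from it, so its gene is uncertain. Sec1, a fucosyltransferase gene, had a peak of 3951 bp over its start, and the nearest knockout peak was 207 bp from that peak and outside the 2 kb around the start.

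With predicted genes left out, the widest absent peaks at starts of protein-coding genes lay at Ankrd39 (4696 bp), Cul7 (4363 bp), Tfap2b (4117 bp) and Sec1, followed by a peak of 3815 bp shared by Gipc3 and Hmg20b and a peak of 3702 bp shared by Kcnab2 and Nphp4. Tfap2b, an AP-2 transcription factor of neural crest and kidney (chr1:19209793-19213909), kept 0 bp within 2 kb of its start in the knockout, against 3856 bp in the wild type, and the nearest knockout peak was 1150139 bp away. Its RYBP overlap was 802 bp, a small part of the peak. Cul7, a ubiquitin ligase scaffold, had 0 bp in the knockout and 1863 bp in the wild type. Kcnab2 is a potassium channel subunit and Nphp4 a gene of the ciliary base. Knockout H2AK119ub covered 960 and 1553 bp near their starts, against 5510 and 4244 bp in the wild type.

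The absent peak farthest from any knockout peak, at 4493264 bp, had no gene start within 2 kb. Among absent peaks at the starts of protein-coding genes other than predicted ones, the 6 farthest had widths between 824 and 1607 bp. Pam, an enzyme that amidates peptide hormones, had a peak of 1122 bp that was 4071981 bp from the nearest knockout peak. Zscan18 (824 bp) and Zbtb45 (1607 bp), both zinc-finger genes of proximal chromosome 7, were 3177493 and 2948880 bp from it. Vcan, the proteoglycan versican, had a peak of 1429 bp wholly inside a RYBP peak of 3805 bp, 2685059 bp from knockout signal. Nectin3, an adhesion gene (1273 bp), and Sun3, a testis gene of the nuclear envelope (1135 bp), were at 2010765 and 1835433 bp. Such peaks lie in regions where the knockout list was empty over long distances.

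Of the gene lists, germline and meiosis genes had the largest share of tested members with an absent peak: 8 of 37, 21.6% (11.4% to 37.2%), against 4.12% of all genes. Relative to the genes marked in the wild type, this was 8 of 24, 33.3% (18.0% to 53.3%), against 20.7% (19.3% to 22.2%) of all marked genes, so the interval includes the share over all marked genes. On that basis the germline share was not the largest, being lower than those of the cell cycle and Polycomb lists. Of the 37 germline genes tested, 24 had a wild-type peak and 20 a knockout peak at a start. How many had both was not counted. At 6 of the 8 no knockout peak lay within 2 kb of a start, against 64.4% of the 609 genes with an absent peak. Mael had an absent peak of 1810 bp with 1560 bp of RYBP, Tex12 a peak of 1629 bp with 1464 bp, and Slc25a31 a peak of 1966 bp with 1405 bp, and each held the start. Msh5, a meiotic recombination gene (2636 bp), and the meiotic cohesin genes Stag3 (1179 bp) and Rec8 (832 bp) were also without a knockout peak near the start. Brdt, a testis bromodomain gene, had 595 bp in the knockout and 830 bp in the wild type. Those 830 bp were the absent peak itself, so the 595 bp lay beside it. Zcwpw1, a meiotic histone reader gene, had 896 bp in the knockout and 2144 bp in the wild type. An E-box was present at 5 of these 8 genes, 62.5% (30.6% to 86.3%), at 10 of the 29 other germline genes tested, 34.5% (19.9% to 52.7%), and at 9.19% of all genes. The E2F motif was present at 4 of 8, 7 of 29 and 6.96%. Earlier results of these data had already shown some germline genes marked in the wild type alone, so the list is no independent evidence.

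**Figure D5:**
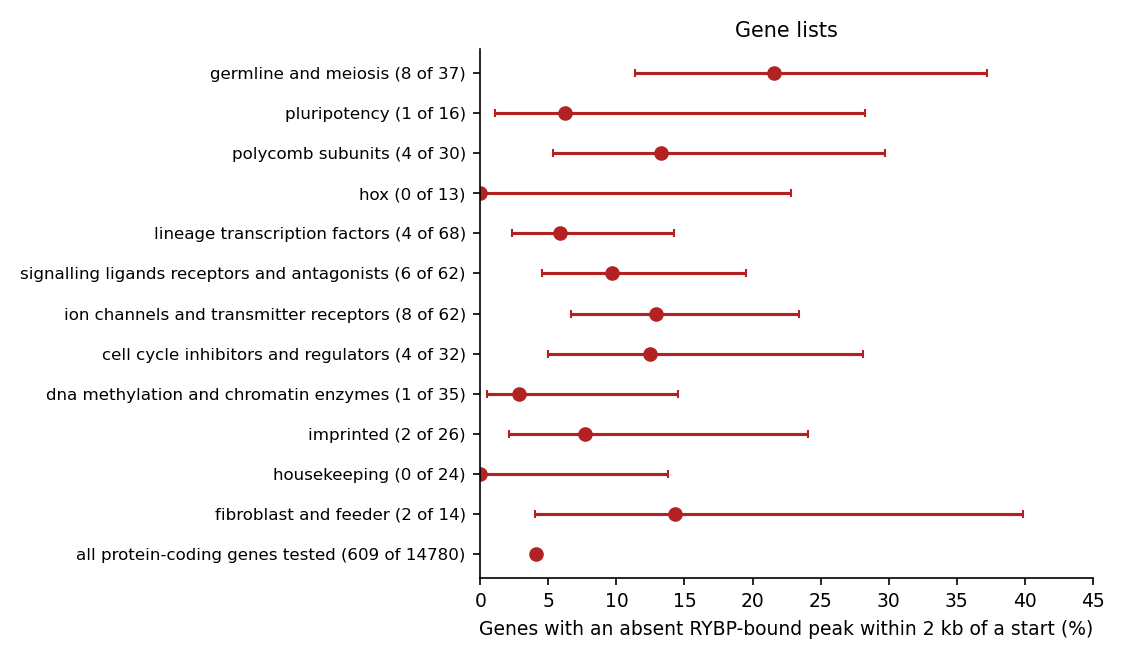
Percentage of tested genes of each list with an absent RYBP-bound peak within 2 kb of a start, with 95% Wilson intervals; the count and number tested stand beside each name. Germline and meiosis genes stand at 21.6%, and all protein-coding genes at 4.12% in the bottom row.

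Genes for Polycomb subunits had absent peaks at 4 of 30 tested members, 13.3% (5.31% to 29.7%), against 4.12% of all genes. Of the 11 marked in the wild type this was 36.4% (15.2% to 64.6%), an interval that includes the 20.7% of all marked genes. Mga, the scaffold of the germline-repressing variant complex, had an absent peak of 1299 bp (chr2:119897089-119898387) wholly inside RYBP and over its start, 147198 bp from knockout signal. Bmi1, a subunit of canonical PRC1, had a peak of 768 bp, also wholly inside RYBP, and 0 bp in the knockout. Ring1, a catalytic ligase of PRC1, had a peak of 1595 bp whose nearest edge was 1249 bp upstream of the start, and RYBP covered 0 bp within 2 kb of that start. The same peak also lay within 2 kb of a start of H2-Ke6, so its gene is uncertain. Kdm2b went the other way in covered sequence: beside its absent peak of 847 bp, knockout H2AK119ub covered 1877 bp within 2 kb of its starts, against 847 bp in the wild type. For Kdm2b the absent peak is thus not a loss over the gene's starts as a whole.

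Cell cycle genes had absent peaks at 4 of 32 tested members, 12.5% (4.97% to 28.1%), against 4.12% of all genes. Of the 9 marked in the wild type this was 44.4% (18.9% to 73.3%), which also includes the 20.7% of all marked genes. Besides Id2 they were Mycn, a MYC family factor (1434 bp, 1208314 bp from knockout signal), Cdkn2c, an INK4 inhibitor of cyclin-dependent kinases (1006 bp, 308228 bp), and Ccne1, a cyclin of S-phase entry (909 bp, 19938 bp). None of these last 3 had a knockout peak within 2 kb of a start. Ion channel and transmitter receptor genes had absent peaks at 8 of 62, 12.9% (6.69% to 23.4%), against 4.12% of all genes. Of the 50 marked in the wild type the share was 16.0% (8.34% to 28.5%), below the 20.7% of all marked genes but with an interval that includes it. They included the dopamine receptor gene Drd2 (1795 bp), the nicotinic receptor gene Chrna3 (2857 bp) and the potassium channel gene Kcna3 (1387 bp), each with 0 bp in the knockout, against 1795, 2857 and 2194 bp in the wild type within 2 kb of a start. At 7 of the 8 genes no knockout peak lay there, against 64.4% of the 609 genes with an absent peak.

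Lineage transcription factors had absent peaks at 4 of 68, 5.88% (2.31% to 14.2%), an interval that includes the 4.12% of all genes. Among the 61 marked in the wild type the share was lower, at 6.56% (2.58% to 15.7%), than the 20.7% (19.3% to 22.2%) of all marked genes. Besides Tfap2b these were Tbx18, a mesoderm factor (1645 bp), Foxa3, a liver and gut factor (1273 bp), and Twist1, a mesenchyme factor (921 bp). Twist1 had 995 bp in the knockout, against 2175 bp in the wild type. Hox genes had 0 of 13, which allows a share of up to 23.1% (3 counts of 13; Wilson limit 22.8%), and this limit includes the share of all marked genes. All 13 were marked at a start in each genotype. Marked genes were counted with or without RYBP, whereas an absent peak had to overlap RYBP and be narrower than 5000 bp. A gene marked only by a wider domain could not have one, so low shares of marked genes can follow from the rule. How far this held was not tested. Signalling genes had 6 of 62, 9.68% (4.51% to 19.5%), against 4.12% of all genes, but 11.8% (5.51% to 23.4%) of the 51 marked in the wild type, against 20.7% of all marked genes. They included Vegfa, Gli2, a Hedgehog pathway factor (1742 bp, 0 bp in the knockout), Dkk2, a modulator of Wnt signalling (995 bp), and Grem1, a BMP antagonist (968 bp, 1026 bp in the knockout against 1751 bp in the wild type).

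The remaining lists gave few genes. Imprinted genes had 2 of 26: Slc38a4, an amino acid transporter gene (1458 bp, 0 bp in the knockout), and Igf2r, where the knockout peak began 62 bp away and covered 2000 bp, against 3414 bp in the wild type. Chromatin enzymes had 1 of 35, the H3K9 methyltransferase gene Ehmt2 (1210 bp). Pluripotency genes had 1 of 16, Otx2 (1790 bp). Near its starts H2AK119ub covered 1414 bp in the knockout and 4861 bp in the wild type. Fibroblast and feeder genes had 2 of 14, Fbn1 and Col5a1, and both had a knockout peak near a start. H2AK119ub covered 1803 and 1406 bp there in the knockout, against 2764 and 2860 bp in the wild type. Housekeeping genes had 0 of 24, which allows a share of up to 12.5% (3 counts of 24; Wilson limit 13.8%), and 1 of the 24 was marked in the wild type. Counts of this size do not set these lists apart from the 4.12% of all genes, since the Wilson intervals of each include it.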

How the data were processed

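Peak lists of 3 of the 5 libraries were used, and the inputs were not analysed here. Groups came from the sample titles. Bowtie2 2.2.5, MACS 1.4 and mm10 are named per the submitters' processing notes. For the peak threshold and the use of input, the setting is not given in the sources used here. Deposited lists give positions in bp, and their score column is 0 for every peak, so no peak height was used. Peaks were called per library, not on pooled samples. Starts were converted to positions counted from 1.

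Overlap meant at least 1 bp. Gene starts came from 32851 RefSeq promoter entries (GRCm38.p6) for 27025 genes. A peak near starts of several genes counted for each of them, as with Foxa3 and Sympk or Stag3 and Gpc2. The table is not complete, and promoters of chromosome 18, with 35 of the peaks, were not analysed here. Of 666 genes in 12 lists, 417 were tested. Shares carry Wilson intervals, differences Newcombe intervals and medians binomial intervals, all treating peaks as independent. Peaks sharing a promoter or RYBP peak are not independent. Computation used Python 3.11.15, numpy 2.4.6, pandas 2.3.3 and scipy 1.17.1, and the overlap code was tested on simulated data.

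Named genes, without predicted genes, were the 12 with most RYBP sequence in an absent peak, the 8 with the widest, the 6 farthest from knockout peaks, and up to 3 per list. Other list genes named, and Nktr and Meis1, were chosen after their values were seen. The peaks and lists were chosen with earlier results of these data known.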

Additional observations from a re-analysis of the deposited data

How the results depend on the processing

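No paired analysis was possible because each group has 1 library. Of 56 values recomputed under an alternative, 43 stayed within the interval of the reported value or, for counts, within 1.5 times of it. The number of peaks was 640 with peaks within 2 kb merged and 581 when no knockout peak was allowed within 5 kb, against 1113 as reported. It was 797 with a margin of 1 kb and 1280 on all autosomes. It was 830 with an overlap of at least 50%, of the narrower peak for RYBP and of the wild-type peak for the knockout. Peaks with a smaller knockout overlap then counted as absent, so these 830 are not all among the 1113. The median width was 1320.5 bp with the 50% overlap, 1301 bp with merged peaks and 1406 bp among peaks of at least 1 kb. The median RYBP width was 1757 bp with the 50% overlap, 1648 bp with the margin of 1 kb and 1617 bp with that of 5 kb. The share at a gene start was 68.0% with the margin of 5 kb, 54.8% with windows of 1 kb and 66.4% with windows of 5 kb. Listed genes with such a peak numbered 26 with the margin of 5 kb, against 40. The difference in median RYBP width from kept peaks was -221 bp averaged over width classes, against -310 bp. The median CpG ratio lay between 0.714 and 0.732 under every alternative run. Read depth is unknown and limits all statements on absence.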

Other observations

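MicroRNA hairpins lay within 2 kb of 12 of the absent peaks, 13 hairpins in all, and were looked at after their values had been seen. The share of kept peaks or of all wild-type peaks near a hairpin was not computed, so the count shows no excess or lack. Mir10b, in the Hoxd cluster, was next to a peak of 1540 bp (chr2:74728005-74729544) with 213 bp of RYBP, and a knockout peak lay 617 bp away. Mir193a was next to a peak of 1259 bp with a knockout peak 162 bp away. Mir219a-1 and Mir219c were next to the same peak as Ring1, 23608 bp from knockout signal, and Mir92b was next to a peak of 885 bp, 7496 bp from it.

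Chromosomes 6 and 8 are outside the rule. By the same criteria 45 of 261 RYBP-bound peaks of chromosome 6 were absent in the knockout, 17.2% (13.1% to 22.3%), and 122 of 347 of chromosome 8, 35.2% (30.3% to 40.3%), against 28.0% over the 17 chromosomes used.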
